A study of Homo sapiens with 12 samples.

Results

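Glycolysis genes and genes of the hypoxia response were followed in HEL cells in which JAK2 had been targeted with short hairpin RNAs (shRNAs). The set was named by function, from hexose uptake to lactate, the switches of glycolytic flux, the oxygen-sensing machinery of the hypoxia-inducible factor (HIF) and known HIF targets. Of its 37 genes, 34 had a probe set that the array annotation pairs with that gene alone, out of 11940 such genes on the array. The lactate transporters SLC16A1 and SLC16A3 and the HIF target CA9 were not analysed here. Each gene was read at its brightest probe set.

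HEL is a human acute myeloid leukaemia line of erythroid type that is homozygous for the activating V617F mutation of JAK2, so every group below carries that mutation. Cells of the Jak2-9 and Jak2-10 groups received lentivirus with 1 of 2 different shRNAs against JAK2, and cells of the GFP and Luc groups received a control. The labels call GFP both a vector control and a control shRNA, and Luc an shRNA against luciferase, which human cells lack. All viruses were made in a pLKO vector that confers puromycin resistance. Each group had 3 arrays, and each array started from 20 ng of total RNA that was amplified and labelled with biotin. Nothing in the labels says that replicates came from separate cultures. The p-values therefore rest on the spread among arrays, and part or all of it may be technical. All groups come from 1 cell line.

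Glycolysis splits glucose into pyruvate in the cytosol and yields ATP without oxygen; lactate dehydrogenase then recycles the NADH by making lactate. HIF is a dimer of an oxygen-regulated alpha subunit, such as HIF1A, with ARNT. Prolyl hydroxylases of the EGLN family mark HIF1A for destruction when oxygen is present, so HIF1A is regulated largely at the protein level, and the dimer binds the core letters ACGTG or GCGTG near genes for glucose uptake, most glycolytic enzymes, angiogenesis and mitophagy. Blood cells driven by mutant JAK2 are known for active glucose metabolism, and red cell precursors depend on glycolysis as they lose their mitochondria.

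JAK2 itself was measured first. Its log2 intensity was 9.37, 9.89 and 10.09 in Jak2-9 cells and 10.06, 10.04 and 9.78 in Jak2-10 cells, against 10.47, 10.40 and 10.68 in GFP cells and 10.47, 10.63 and 10.56 in Luc cells. Each of the 6 knockdown arrays was dimmer at JAK2 than any of the 6 controls. The fall was 0.67 ± 0.11 on the log2 scale for both hairpins together (SE, n = 6 against 6, limma adjusted p = 0.0040). The log2 fold change was -0.75 for Jak2-9 (limma adjusted p = 0.00768) and -0.58 for Jak2-10, which did not pass (limma adjusted p = 0.0824). Changes given below without the ending -fold are on the log2 scale. Jak2-9 replicate 1 stood apart, where 253 genes differed by more than 2-fold from the average of its 2 companions, against 4 and 13 for those companions and 0 to 2 for each array of the other groups. None of the 34 genes followed here was among those 253. The 3′ minus 5′ difference of ACTB, a sign of RNA quality, was 0.42 on that array and 0.13 to 0.20 with Jak2-10, against 0.19 to 0.38 in GFP cells and 0.22 to 0.25 in Luc cells. Erythroid markers were bright (7 of 9 listed were measured, summed intensity 71892 to 74740 in Jak2-9, 70278 to 73833 in Jak2-10, 66588 to 74367 in GFP and 72240 to 73358 in Luc cells). Signals of repeated Alu RNA were lower in knockdown cells (log2 intensity 13.94 to 14.13 for Jak2-9 and 14.01 to 14.15 for Jak2-10) than in control cells (14.50 to 14.64 for GFP and 14.63 to 14.68 for Luc).

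Few of the 34 genes changed when JAK2 was targeted. With both hairpins set against both controls, 1 gene rose, the aldolase isozyme ALDOC, and 0 fell, while among all 11940 genes 1.83% passed, 0.436% as a rise and 1.39% as a fall (limma, adjusted p under 0.05 after Benjamini-Hochberg adjustment over all genes). With Jak2-9 alone, 3 of 34 genes rose, namely ALDOC, GPI and ALDOA, and 0 fell, against 1.6% and 1.47% of all genes, 3.07% together. With Jak2-10 alone, 0 of 34 passed, against 0.687% of all genes, of which 0.0419% rose and 0.645% fell. At an unadjusted p under 0.05, 6 of the 34 were higher and 0 lower in knockdown cells, 13 were higher and 0 lower with Jak2-9, and 1 was higher and 1 lower with Jak2-10. For all genes the unadjusted shares, higher and lower, were 10.5% and 5.72% for both hairpins, 17% and 7.22% for Jak2-9, and 2.65% and 3.11% for Jak2-10. The 3 comparisons share the same 6 control arrays and are therefore not independent of each other.

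The median log2 fold change of the 34 genes was 0.09 for both hairpins, 0.16 for Jak2-9 and 0.03 for Jak2-10, against 0.04, 0.06 and 0.02 for all genes. It lay above 0 for 30 of 34 genes with both hairpins, for 30 of 34 with Jak2-9 and for 22 of 34 with Jak2-10, against 63.5%, 63.7% and 56.6% of all genes. By array, 21, 33 and 29 of the 34 genes were above their control mean in Jak2-9 cells, and 30, 33 and 6 in Jak2-10 cells. Of all 11940 genes, 7493, 7489 and 6923 were above it in Jak2-9 cells, and 7626, 7535 and 4941 in Jak2-10 cells. Jak2-10 replicate 3 was thus the only knockdown array on which most genes, of the set and of all, were below the control mean. It was the lowest array of its group for 30 of 34 genes, against 56.7% of all genes.

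**Figure D1:**
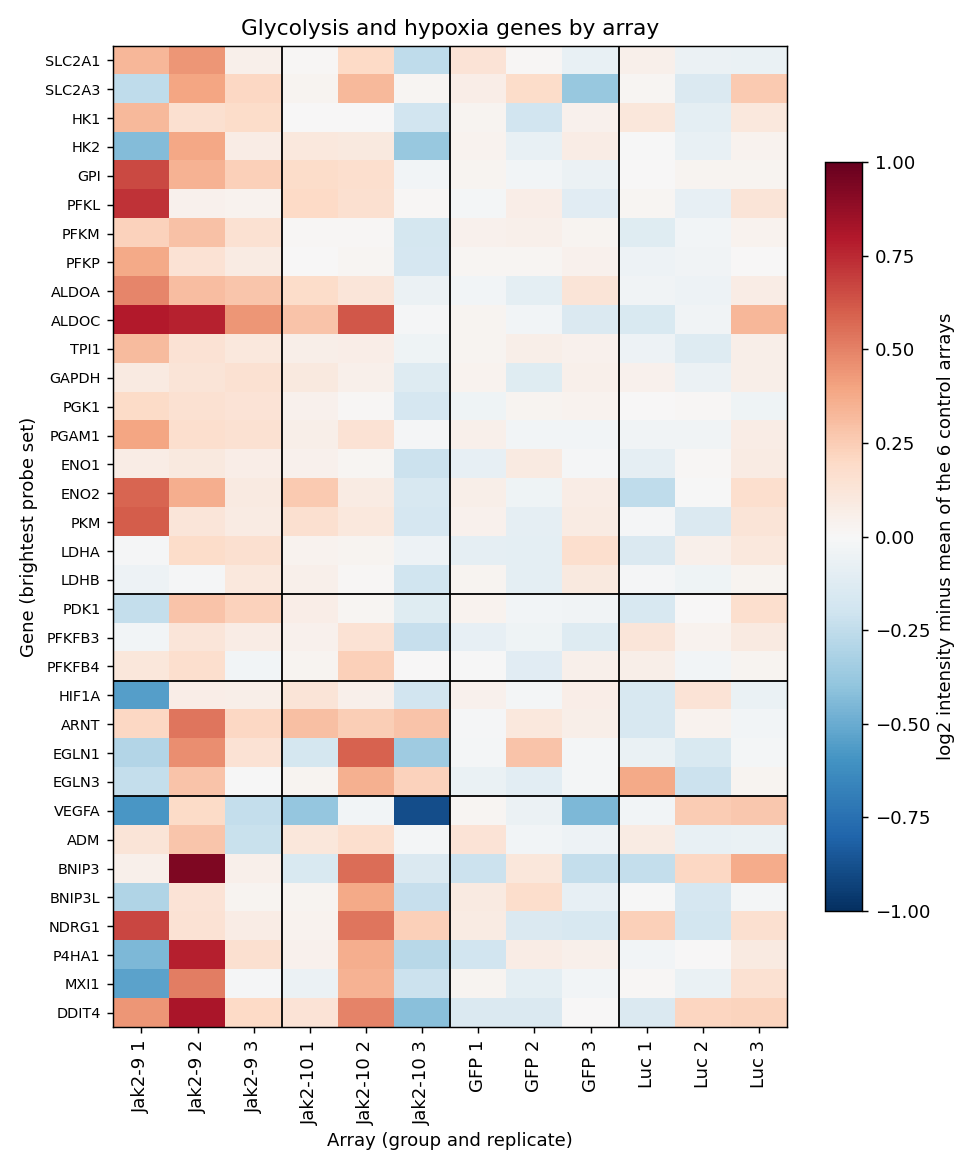
Log2 intensity of each of the 34 genes (rows) on each of the 12 arrays (columns), as the difference from the mean of the 6 control arrays; colours run from -1 (blue) to 1 (red) and lines separate groups of arrays and roles of genes. ALDOC is red on all Jak2-9 arrays. Jak2-10 replicate 3 is blue for most genes, with 6 of 34 above the control mean, against 4941 of all 11940 genes.

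Glucose enters through the transporters SLC2A1 and SLC2A3 and is trapped by hexokinase. None of these 4 genes passed the test in any comparison. SLC2A1 read 8.80, 8.91 and 8.52 on the log2 scale in Jak2-9 cells and 8.48, 8.67 and 8.22 in Jak2-10 cells, against 8.61, 8.48 and 8.40 in GFP cells and 8.52, 8.42 and 8.40 in Luc cells. Its log2 fold change was 0.27 ± 0.11 for Jak2-9 (SE, limma adjusted p = 0.153) and -0.01 ± 0.11 for Jak2-10, and the groups overlapped. SLC2A3 differed from control by 0.12 with each hairpin. HK1, the hexokinase of red cells, read 11.55, 11.39 and 11.41 in Jak2-9 cells and 11.24, 11.24 and 11.04 in Jak2-10 cells, against 11.26, 11.05 and 11.28 in GFP cells and 11.34, 11.14 and 11.34 in Luc cells. The Jak2-9 arrays lay above all 6 controls, and the Jak2-10 arrays did not. HK2, the HIF-responsive hexokinase, read 8.81, 9.63 and 9.32 in Jak2-9 cells and 9.34, 9.34 and 8.86 in Jak2-10 cells, against 9.28, 9.17 and 9.32 in GFP cells and 9.23, 9.17 and 9.28 in Luc cells. Its low values came from Jak2-9 replicate 1 and Jak2-10 replicate 3, and its change for both hairpins was -0.02, with a 95% interval from -0.29 to 0.24.

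The step after hexokinase gave the second of the Jak2-9 calls. GPI, which turns glucose 6-phosphate into fructose 6-phosphate, read 12.33, 12.02 and 11.91 in Jak2-9 cells and 11.86, 11.84 and 11.64 in Jak2-10 cells, against 11.69, 11.64 and 11.61 in GFP cells and 11.67, 11.70 and 11.70 in Luc cells. Mean intensity was 4377 ± 678 in Jak2-9 cells and 3522 ± 278 in Jak2-10 cells, against 3213 ± 96.4 in GFP cells and 3302 ± 38.9 in Luc cells (SD, n = 3 each). All Jak2-9 arrays lay above all controls, replicate 1 highest, while the Jak2-10 arrays straddled them. The rise with Jak2-9 was 1.33-fold, 0.42 ± 0.10 on the log2 scale (SE, limma adjusted p = 0.0345), and the change with Jak2-10 was 0.11 ± 0.10, with an interval from -0.10 to 0.32. Without Jak2-9 replicate 1 the GPI change with Jak2-9 was 0.29 (limma adjusted p = 0.127). The call stayed only without Jak2-9 replicate 2 or 3 or Jak2-10 replicate 2 or 3; without any other array the limma adjusted p lay between 0.0509 and 0.127.

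The phosphofructokinase subunits, which commit the sugar to glycolysis, did not pass in any comparison. PFKM, the muscle-type subunit, read 10.08, 10.14 and 10.00 in Jak2-9 cells and 9.86, 9.86 and 9.67 in Jak2-10 cells, against 9.73 to 9.90 over the 6 control arrays. PFKP, the platelet-type subunit, read 11.31, 11.07 and 11.02 in Jak2-9 cells and 10.94, 10.95 and 10.77 in Jak2-10 cells, against 10.88 to 10.98 over the controls. For both subunits the Jak2-9 arrays lay above every control array. Their log2 fold changes with Jak2-9 were 0.22 (PFKM, limma adjusted p = 0.115) and 0.20 (PFKP, limma adjusted p = 0.167). PFKL, the liver-type subunit, changed by 0.27 with Jak2-9 at its brightest probe set. There replicate 1 read 9.85, against 9.17 and 9.16 on its companions and 9.01 to 9.25 over the controls. The other PFKL probe set, 201102_s_at, gave 0.38 with Jak2-9 and did not pass (limma adjusted p = 0.0993). It read 9.63, 8.95 and 9.10 in Jak2-9 cells, against 8.70 to 9.03 over the controls.

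Aldolase cleaves fructose 1,6-bisphosphate into the triose phosphates, and both of its isozymes in the set were among the genes that rose with Jak2-9. ALDOC, the isozyme best known from brain, read 9.80, 9.77 and 9.45 in Jak2-9 cells and 9.29, 9.62 and 9.00 in Jak2-10 cells, against 9.03, 8.98 and 8.86 in GFP cells and 8.85, 8.97 and 9.34 in Luc cells. Mean intensity was 821 ± 106 in Jak2-9 cells and 642 ± 140 in Jak2-10 cells, against 498 ± 29.5 in GFP cells and 537 ± 96.9 in Luc cells (SD, n = 3 each). All Jak2-9 arrays lay above all controls, while Jak2-10 replicate 3 lay below GFP replicate 1, and Jak2-10 replicates 1 and 3 lay below Luc replicate 3. The rise was 1.40-fold for both hairpins, 0.48 ± 0.11 on the log2 scale (SE, limma adjusted p = 0.0457), and 1.59-fold for Jak2-9, 0.67 ± 0.14 (SE, limma adjusted p = 0.0208). With Jak2-10 the change was 0.30 ± 0.14, with an interval from 0.00 to 0.60 (limma adjusted p = 0.867). The call for both hairpins stayed only without Jak2-9 replicate 3, Jak2-10 replicate 3 or Luc replicate 3; without any other array the ALDOC change was 0.40 to 0.50 and the limma adjusted p 0.0549 to 0.13. The Jak2-9 call of ALDOC was lost without Jak2-9 replicate 1 (limma adjusted p = 0.0746), Luc replicate 1 (0.0503) or Luc replicate 2 (0.0573).

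ALDOA, the main aldolase of muscle and red cells, read 13.86, 13.67 and 13.64 in Jak2-9 cells and 13.55, 13.49 and 13.31 in Jak2-10 cells, against 13.34, 13.27 and 13.50 in GFP cells and 13.34, 13.32 and 13.44 in Luc cells. All Jak2-9 arrays lay above all controls. The rise with Jak2-9 was 1.28-fold, 0.36 ± 0.09 on the log2 scale (SE, limma adjusted p = 0.0467), against 0.08 ± 0.09 for Jak2-10 with an interval from -0.11 to 0.27. The second ALDOA probe set gave 0.29 for Jak2-9 and did not pass (limma adjusted p = 0.0637). The Jak2-9 call of ALDOA stayed only without Jak2-9 replicate 2 or 3 or Jak2-10 replicate 3; without any other array the limma adjusted p lay between 0.0545 and 0.181, the highest of these without Jak2-9 replicate 1, where the change was 0.29.

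**Figure D2:**
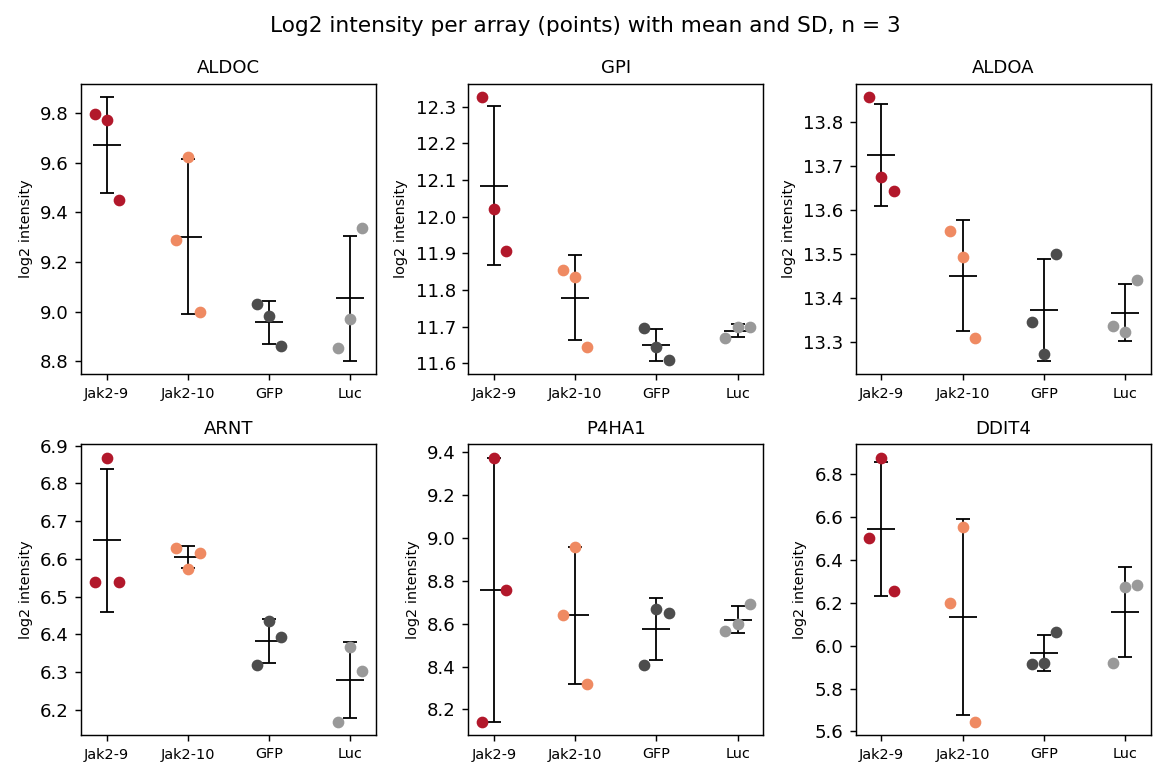
Log2 intensity on every array (points) for ALDOC, GPI, ALDOA, ARNT, P4HA1 and DDIT4 in the Jak2-9, Jak2-10, GFP and Luc groups, with the mean and SD of 3 arrays as bars; each panel has its own axis, which does not start at 0. The Jak2-9 points of ALDOC, GPI and ALDOA lie above all control points, whereas P4HA1 ranges from 8.14 to 9.37 within the Jak2-9 group.

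The start sites of these 3 genes are shown because only they passed in the main fit, which read 1 probe set per gene. The 250 bases before a start site were taken from RefSeq on GRCh38.p14, 5′ to 3′ on the gene's strand, with the HIF core letters ACGTG and GCGTG in capitals on either strand (CACGT and CACGC on the printed strand). Overlapping matches on opposite strands print as CACGTG and count as 2. ALDOC lies at chr17:28576896-28577145 on the minus strand, GPI at chr19:34364742-34364991 on the plus strand and ALDOA, at the most upstream of its starts, at chr16:30064029-30064278 on the plus strand.
ALDOC: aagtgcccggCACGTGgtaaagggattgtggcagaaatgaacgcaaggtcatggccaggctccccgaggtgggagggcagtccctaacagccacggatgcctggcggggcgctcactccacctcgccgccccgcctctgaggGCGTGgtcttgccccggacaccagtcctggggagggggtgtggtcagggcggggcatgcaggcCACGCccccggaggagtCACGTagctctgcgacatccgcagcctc
GPI: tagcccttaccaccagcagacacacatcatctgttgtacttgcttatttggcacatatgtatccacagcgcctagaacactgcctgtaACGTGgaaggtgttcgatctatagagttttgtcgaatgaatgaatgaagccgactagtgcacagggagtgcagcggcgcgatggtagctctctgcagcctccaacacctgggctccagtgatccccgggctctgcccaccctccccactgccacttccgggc
ALDOA: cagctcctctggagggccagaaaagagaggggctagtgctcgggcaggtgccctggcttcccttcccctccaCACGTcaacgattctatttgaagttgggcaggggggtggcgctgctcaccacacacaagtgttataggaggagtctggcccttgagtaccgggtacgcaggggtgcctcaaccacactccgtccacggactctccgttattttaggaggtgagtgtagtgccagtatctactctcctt
The ALDOC window held 5 matches, 3 of ACGTG and 2 of GCGTG, and the GPI and ALDOA windows printed here held 1 ACGTG each. At the other ALDOA starts the windows held 2 and 1 ACGTG. Over the set, 30 of the 34 genes had such a window, 55 windows in all. ACGTG was in 38.2% of the 55 windows and in 18.5% of 35116 windows of all RefSeq genes in the table, and GCGTG was in 32.7% and 32.2%. Windows with 5 or more matches, the ALDOC count, were 4 of the set (7.27%) and 1.36% of all windows. The set holds known HIF targets by choice, and the windows of all RefSeq genes were not limited to the 11940 measured genes. These shares are therefore no test of the set. Genes with several starts have more windows to search; among genes with 1 window, 13 of 19 of the set (68.4%) and 42.2% of 22114 genes held either motif. These matches describe letters in a window and are not binding sites.

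Downstream of aldolase no gene passed at its brightest probe set. TPI1, which interconverts the triose phosphates, GAPDH, which oxidises them, PGK1, which makes the first ATP, and PGAM1, which moves the phosphate along, each had all 3 Jak2-9 arrays above all 6 control arrays. Their log2 fold changes were 0.19, 0.13, 0.16 and 0.24 with Jak2-9, against 0.03, 0.01, -0.04 and 0.06 with Jak2-10. These values are from the brightest probe sets. At other probe sets the order of the Jak2-9 and control arrays held for GAPDH but not for TPI1 or PGK1. PGAM1 read 12.94, 12.72 and 12.70 in Jak2-9 cells and 12.61, 12.69 and 12.54 in Jak2-10 cells, against 12.51 to 12.62 over the 6 control arrays. ENO1, the common enolase, changed by 0.08 with Jak2-9 and by -0.05 with Jak2-10 at its brightest probe set, where it overlapped the controls. ENO1 at 201231_s_at gave 0.18 with Jak2-9, at 13.04 to 13.14 against 12.78 to 12.96 over the controls, and 0.04 with Jak2-10. At 216554_s_at it gave -0.27 with Jak2-9 and -0.01 with Jak2-10. Neither of these probe sets passed. ENO2, the enolase best known from neurons, read 8.47, 8.26 and 7.98 in Jak2-9 cells and 8.16, 7.98 and 7.73 in Jak2-10 cells, against 7.95, 7.85 and 7.97 in GFP cells and 7.64, 7.89 and 8.06 in Luc cells. Its log2 fold change was 0.35 ± 0.12 for Jak2-9 (SE, limma adjusted p = 0.119). PKM, pyruvate kinase, gave 0.27 ± 0.12 with Jak2-9, of which replicate 1 was the outer value at 12.32, against 11.84 and 11.80 on its companions. The lactate dehydrogenase subunits LDHA and LDHB differed little from control, by 0.11 and 0.02 with Jak2-9 and by 0.00 and -0.05 with Jak2-10, and the LDHA interval for both hairpins ran from -0.11 to 0.22.

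As a group, 19 genes of uptake, glycolysis and lactate had a median log2 fold change of 0.22 with Jak2-9, where all 19 lay above 0, and of 0.01 with Jak2-10, where 11 lay above 0. All genes had medians of 0.06 and 0.02. The median of the 19 genes was 0.32, 0.17 and 0.14 on the 3 Jak2-9 arrays and 0.06, 0.08 and -0.16 on the 3 Jak2-10 arrays, against 0.03, -0.03 and 0.04 on the GFP arrays and -0.01, -0.05 and 0.07 on the Luc arrays. The highest of these medians, on Jak2-9 replicate 1, came with 15 of 19 genes above the control mean, against 18 and 19 of 19 on the other Jak2-9 arrays.

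The median of the erythroid, megakaryocytic and shared lineage markers of HEL cells was likewise above 0 on all Jak2-9 arrays and highest on replicate 1. The same held for all genes, at 0.10, 0.04 and 0.03, and for T cell markers, at 0.21, 0.08 and 0.07. It did not hold for the B cell, neutrophil and monocyte, or fibroblast markers. The 6 megakaryocytic markers measured of 6 listed had medians of 0.48, 0.28 and 0.19 on the Jak2-9 arrays and 0.15, 0.16 and 0.06 on the Jak2-10 arrays, against -0.05, -0.01 and 0.04 on the GFP arrays and -0.02, -0.01 and 0.16 on the Luc arrays (summed intensity 2708 to 3490 in Jak2-9, 2399 to 2774 in Jak2-10, 2523 to 2569 in GFP and 2522 to 3006 in Luc cells). On each Jak2-9 array 5 of the 6 were above the control mean, and on replicate 1 the lowest was at -0.80. Their median log2 fold change with Jak2-9 was 0.30, and SELP, the platelet adhesion protein P-selectin, rose 1.35-fold (limma adjusted p = 0.0221). The 4 markers of both lineages had a median of 0.25 with Jak2-9, and GFI1B, a transcription factor of both lineages, rose 1.33-fold (limma adjusted p = 0.0208). Of 7 erythroid markers 6 lay above 0 with Jak2-9, with a median of 0.12, and HBZ, an embryonic globin, rose 1.54-fold (limma adjusted p = 0.0455). None of these markers passed with Jak2-10 or with both hairpins. B cell markers had a median of 0.63 on Jak2-9 replicate 1, with 3 of 4 listed measured (summed intensity 205 to 317 in Jak2-9, 217 to 237 in Jak2-10, 182 to 257 in GFP and 185 to 213 in Luc cells), none of them at 0. The part of these markers in the glycolysis values was not tested. In bulk RNA, fewer cells of a type and less RNA per cell cannot be told apart.

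The switches of glycolytic flux did not pass. PDK1, a kinase that shuts pyruvate out of the mitochondrion and a HIF target, read 7.78, 8.30 and 8.25 in Jak2-9 cells and 8.09, 8.04 and 7.90 in Jak2-10 cells, against 7.86 to 8.19 over the 6 control arrays. PFKFB3 and PFKFB4, which make the phosphofructokinase activator fructose 2,6-bisphosphate, changed by 0.06 and 0.09 with Jak2-9 and by -0.01 and 0.09 with Jak2-10. For both hairpins the 95% interval of PFKFB3 ran from -0.14 to 0.18 and that of PFKFB4 from -0.06 to 0.24.

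Of the 4 genes of oxygen sensing, ARNT came nearest to a call. ARNT, the constant partner of HIF1A, read 6.54, 6.87 and 6.54 in Jak2-9 cells and 6.63, 6.57 and 6.62 in Jak2-10 cells, against 6.32, 6.43 and 6.39 in GFP cells and 6.17, 6.37 and 6.30 in Luc cells. It was the 1 gene of 34 whose 6 knockdown arrays all lay above all 6 control arrays, which held for 1.2% of all genes. The log2 fold change was 0.30 ± 0.07 for both hairpins (SE, limma adjusted p = 0.0621), 0.32 for Jak2-9 and 0.28 for Jak2-10, and did not pass. Without Jak2-9 replicate 1 or Jak2-9 replicate 3 ARNT passed for both hairpins, at 0.32 each (limma adjusted p = 0.0239 and 0.0411). It passed for both hairpins in 5 of 21 alternatives with 1 value per gene. Besides the 2 above, these were median centring, quantile normalization and array weights. When every probe set was tested on its own, the brightest ARNT probe set also passed (limma adjusted p = 0.0493). Its other probe sets gave 0.07 and 0.16, of which the 0.16 came from 0.02 with Jak2-9 and 0.31 with Jak2-10.

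HIF1A, the regulated subunit, did not pass, at -0.14 ± 0.13 with Jak2-9 and 0.00 ± 0.13 with Jak2-10 (SE). It read 9.43, 10.05 and 10.05 in Jak2-9 cells and 10.12, 10.03 and 9.79 in Jak2-10 cells, against 10.03, 9.96 and 10.05 in GFP cells and 9.83, 10.12 and 9.92 in Luc cells. Jak2-9 replicate 1 was below all the others. EGLN1, the main oxygen sensor, read 5.38, 6.14 and 5.82 in Jak2-9 cells and 5.50, 6.26 and 5.32 in Jak2-10 cells, against 5.65, 5.96 and 5.65 in GFP cells and 5.60, 5.52 and 5.65 in Luc cells. Its highest array in each hairpin group was replicate 2, and its interval for both hairpins ran from -0.26 to 0.39. EGLN3, a hydroxylase that is itself a HIF target, read 4.23, 4.76 and 4.46 in Jak2-9 cells and 4.50, 4.83 and 4.70 in Jak2-10 cells, against 4.40, 4.37 and 4.45 in GFP cells and 4.85, 4.25 and 4.50 in Luc cells. EGLN3 and the hormone gene ADM were the 2 of 34 genes in the dimmest 30% of genes, where a value may be background.

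The 8 measured HIF targets outside glycolysis gave 0 calls with either hairpin, against 3.07% of all genes with Jak2-9 and 0.687% with Jak2-10. At such shares 0 calls among 8 genes do not set them apart from all genes. These 8 targets varied more within the hairpin groups than the glycolysis genes did. The median range over 3 arrays was 0.70 in Jak2-9 cells and 0.62 in Jak2-10 cells, against 0.25 in GFP cells and 0.26 in Luc cells. The same value for the 19 glycolysis genes was 0.24 in Jak2-9 and 0.23 in Jak2-10 cells, against 0.17 in GFP and 0.15 in Luc cells. For all genes it was 0.33 in Jak2-9 and 0.23 in Jak2-10 cells, against 0.18 in GFP and 0.19 in Luc cells. P4HA1, a subunit of the hydroxylase that matures collagen, had the widest range, at 8.14, 9.37 and 8.76 in Jak2-9 cells and 8.64, 8.96 and 8.32 in Jak2-10 cells, against 8.41, 8.67 and 8.65 in GFP cells and 8.57, 8.60 and 8.69 in Luc cells. BNIP3, a receptor for removing mitochondria, read 9.20, 10.09 and 9.21 in Jak2-9 cells and 9.01, 9.72 and 9.01 in Jak2-10 cells, against 8.95, 9.27 and 8.92 in GFP cells and 8.92, 9.36 and 9.53 in Luc cells. In both hairpin groups replicate 2 was the high array for P4HA1 and BNIP3, and it was the high array for 20 of the 34 genes with Jak2-9, against 25.9% of all genes, and for 18 with Jak2-10, against 36.2%. Jak2-9 replicate 1 was the high array for 12 of the 34 genes, against 50.8% of all genes, and was lowest with replicate 2 highest for 13, against 16.1%. The number of a replicate ties no arrays together in the labels.

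The windows before the P4HA1 and BNIP3 starts are shown as 2 examples chosen after the values were seen, P4HA1 for its wide range with Jak2-9 and BNIP3 for the most matches in a window of the set, 6, as many as HK2. Replicate 2 was also the high array of both hairpin groups for other genes of the set. Of these, SLC2A1 and EGLN3 had windows with 0 matches. EGLN1, PFKFB3, PFKFB4, ADM, MXI1 and DDIT4 each had a window with at least 1 match, and SLC2A3, VEGFA and BNIP3L had no window. The part of these letters in the values was not tested. The P4HA1 and BNIP3 windows lie at chr10:73096867-73097116 and chr10:131981924-131982173, both on the minus strand, with the same letters in capitals.
P4HA1: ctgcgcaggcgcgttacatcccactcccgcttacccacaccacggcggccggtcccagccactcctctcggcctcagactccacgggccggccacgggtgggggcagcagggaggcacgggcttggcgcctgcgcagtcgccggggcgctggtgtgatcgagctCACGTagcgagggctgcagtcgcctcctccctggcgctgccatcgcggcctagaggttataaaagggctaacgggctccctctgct
BNIP3: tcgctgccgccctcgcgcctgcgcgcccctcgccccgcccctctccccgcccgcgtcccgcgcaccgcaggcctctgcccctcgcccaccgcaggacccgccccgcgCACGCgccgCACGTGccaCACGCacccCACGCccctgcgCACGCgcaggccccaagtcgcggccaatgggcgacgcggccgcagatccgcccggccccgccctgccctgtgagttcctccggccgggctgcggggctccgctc
P4HA1 held 1 ACGTG and BNIP3 held 2 ACGTG and 4 GCGTG.

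DDIT4, an inhibitor of the growth kinase mTOR that stress and hypoxia induce, read 6.50, 6.88 and 6.26 in Jak2-9 cells and 6.20, 6.55 and 5.65 in Jak2-10 cells, against 5.92, 5.92 and 6.06 in GFP cells and 5.92, 6.28 and 6.28 in Luc cells. Its change with Jak2-9 was 0.48 ± 0.17 (SE, limma adjusted p = 0.117), the second largest of the set, and 0.07 ± 0.17 with Jak2-10. NDRG1, a stress and differentiation gene, read 6.07, 5.55 and 5.48 in Jak2-9 cells and 5.44, 5.94 and 5.64 in Jak2-10 cells, against 5.49, 5.26 and 5.24 in GFP cells and 5.65, 5.22 and 5.57 in Luc cells, with changes of 0.30 and 0.27 that did not pass. VEGFA, the angiogenic factor, had the lowest fold change of the set, at 6.21, 6.99 and 6.56 in Jak2-9 cells and 6.41, 6.76 and 5.90 in Jak2-10 cells, against 6.81, 6.73 and 6.35 in GFP cells and 6.77, 7.05 and 7.06 in Luc cells. Its change was -0.21 ± 0.19 with Jak2-9 and -0.44 ± 0.19 with Jak2-10 (SE, limma adjusted p = 0.793), the groups overlapped, and its other probe sets gave -0.25 to 0.00 for both hairpins. BNIP3L, the mitophagy receptor of maturing red cells, read 10.84, 11.27 and 11.16 in Jak2-9 cells and 11.16, 11.52 and 10.91 in Jak2-10 cells, against 11.23, 11.31 and 11.06 in GFP cells and 11.14, 10.97 and 11.12 in Luc cells. MXI1, a MYC antagonist, and ADM, a vasodilator, differed from control by 0.01 and 0.07 for both hairpins.

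**Figure D3:**
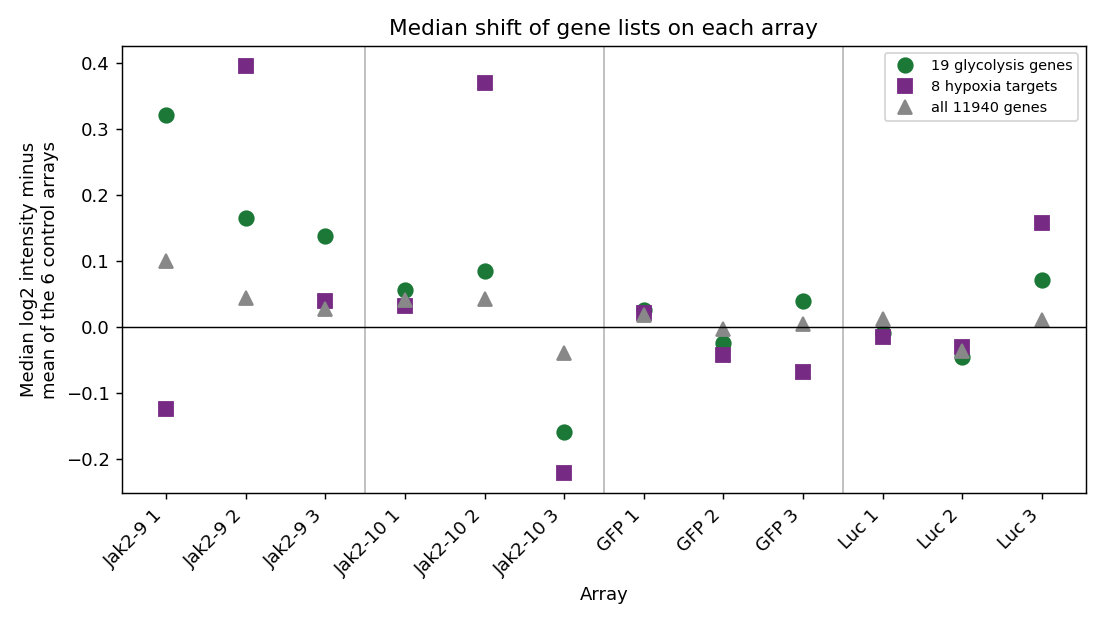
Median difference from the control mean, in log2 intensity, of the 19 glycolysis genes (circles), the 8 hypoxia targets (squares) and all 11940 genes (triangles) on each of the 12 arrays. The hypoxia targets run from -0.22 to 0.40 over the hairpin arrays, with replicate 2 highest in both hairpin groups, and the control arrays stay between -0.07 and 0.16.

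The hairpins were then set against each other. With Jak2-10 minus Jak2-9, 0 of 34 genes passed, against 0% of all 11940 genes (limma), so no gene can be called particular to a hairpin. At an unadjusted p under 0.05, 8 of 34 genes were lower with Jak2-10 and 0 higher, against 7.33% and 2.5% of all genes. The log2 difference was above 0 for 7 of 34 genes, against 40.5% of all genes, and for 1 of the 19 glycolysis genes, with medians of -0.12 and -0.20, against -0.04 for all genes. The 3 lowest were DDIT4 at -0.41 ± 0.20, ALDOC at -0.37 ± 0.16 and GPI at -0.31 ± 0.11 (SE), each with a limma adjusted p of about 0.5. The interval ran from -0.71 to -0.03 for ALDOC and from -0.54 to -0.07 for GPI. All Jak2-10 arrays lay below all Jak2-9 arrays for 9 of 34 genes, 26.5%, against 8.74% of all genes, and above them for 0 of 34, against 2.98%. Similarly, the 3 Jak2-9 arrays lay above all 6 controls for 11 of 34 genes, 32.4%, against 9.41% of all genes. These 11 were HK1, GPI, PFKM, PFKP, ALDOA, ALDOC, TPI1, GAPDH, PGK1, PGAM1 and ARNT. For Jak2-10 that held for ARNT alone, 1 of 34, against 2.68% of all genes. These counts were read at the brightest probe sets. At other probe sets the Jak2-9 order held for ALDOA and GAPDH but not for TPI1, PGK1 or ARNT. The Jak2-10 order of ARNT did not hold there either. For 0 of 34 genes did all arrays lie below the 6 controls, whether of both hairpins, Jak2-9 or Jak2-10, against 1.51%, 3.8% and 2.6% of all genes.

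**Figure D4:**
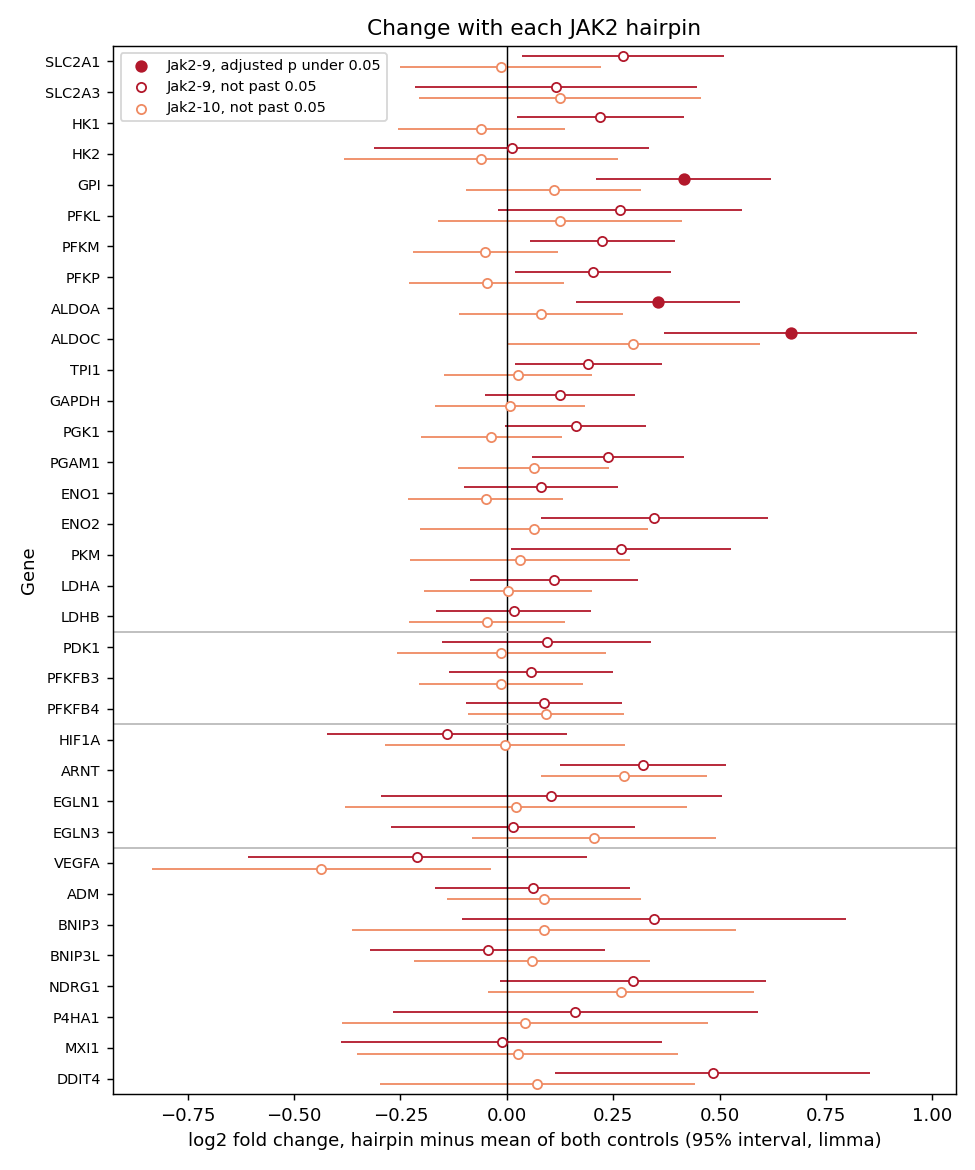
Log2 fold change of each gene against the mean of both controls for Jak2-9 (dark red) and Jak2-10 (orange), with 95% intervals from limma; filled points passed an adjusted p of 0.05. The filled points are GPI, ALDOA and ALDOC with Jak2-9, at 0.42, 0.36 and 0.67; no Jak2-10 point is filled.

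The controls were also set against each other. With Luc minus GFP, 0 of 34 passed, against 0% of all genes (limma), and 0 of 34 had an unadjusted p under 0.05, against 1.01% of all genes higher and 0.905% lower. The difference was above 0 for 19 of 34 genes, against 44.8% of all genes. All Luc arrays lay above all GFP arrays for 1 gene and below them for 1, against 3.58% and 5.88% of all genes. The largest differences were in HIF targets, at 0.33 for VEGFA, 0.23 for BNIP3 and 0.19 for DDIT4, and the lowest were EGLN1 at -0.16, BNIP3L at -0.12 and ARNT at -0.10.

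Probe sets of the same gene did not always give the same answer. The 34 genes had 61 probe sets, and 15 genes had more than 1. When all 19415 named probe sets were tested on their own, 2 of the 61 rose for both hairpins, at ALDOC and ARNT, and 3 fell, against 0.603% and 2.08% of all probe sets (limma). For Jak2-9, 3 of the 61 rose and 2 fell, against 1.46% and 2.15% of all probe sets, and for Jak2-10, 0 rose and 1 fell, against 0.0824% and 1.01%. All those that fell were dim probe sets of PKM and PGK1. PKM at probe set 213700_s_at read 5.55, 5.51 and 5.71 in Jak2-9 cells and 5.95, 5.47 and 5.71 in Jak2-10 cells, against 6.43, 6.20 and 6.71 in GFP cells and 6.03, 6.52 and 6.72 in Luc cells. It fell by 0.79 ± 0.13 for both hairpins (SE, limma adjusted p = 0.00241), while the brightest PKM probe set gave 0.15 and another gave 0.06.

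PGK1 at probe set 221617_at read 4.57, 4.82 and 4.77 in Jak2-9 cells and 4.83, 4.71 and 4.95 in Jak2-10 cells, against 5.60, 5.20 and 5.08 in GFP cells and 5.23, 5.53 and 5.19 in Luc cells. It fell by 0.53 ± 0.10 for both hairpins (SE, limma adjusted p = 0.00831), and PGK1 at 221616_s_at fell by 0.43 ± 0.11 (limma adjusted p = 0.0464). The brightest PGK1 probe set gave 0.06, and the other 3 gave 0.00 to 0.20. At 213700_s_at and 221617_at every knockdown array was dimmer than every control, the same order as the Alu signals; their part in the result was not tested. Suffixes _s_at and _x_at mark probes shared by several transcripts or prone to cross-hybridise, and ALDOA, GAPDH, PGK1, LDHA, LDHB, TPI1, ENO1 and PKM have near-identical copies in the genome, so their values are uncertain to that extent.

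**Figure D5:**
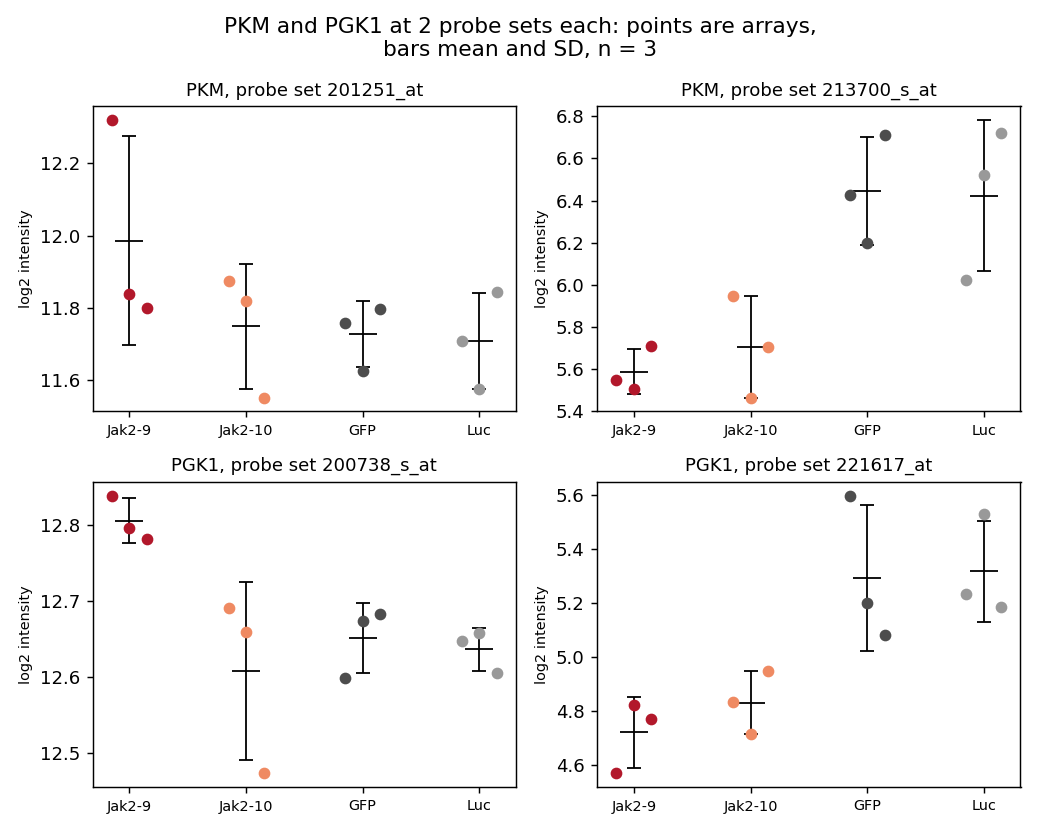
Log2 intensity on every array (points) at the brightest probe sets of PKM (201251_at) and PGK1 (200738_s_at), on the left, and at the dim probe sets 213700_s_at and 221617_at, on the right, with the mean and SD of 3 arrays as bars and an axis for each panel that does not start at 0. At the dim probe sets all Jak2-9 and Jak2-10 points lie below the GFP and Luc points; at the brightest probe sets the groups overlap or lie in the other order.

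The neighbouring pathways were read from lists of other genes. Of 15 measured isozymes of glycolysis outside the set, 0 passed in any comparison. Of all genes, 1.83% passed for both hairpins, 3.07% with Jak2-9 and 0.687% with Jak2-10, and 0% between hairpins or between controls. Among the isozymes the lowest p with Jak2-9 was that of the hexose transporter SLC2A6, at 0.37 ± 0.16. Among 12 genes for the entry of pyruvate into mitochondria, MPC1, a subunit of the pyruvate carrier, rose 1.27-fold with Jak2-9 (limma adjusted p = 0.0459). MPC1 read 9.88, 9.80 and 9.62 in Jak2-9 cells and 9.52, 9.59 and 9.48 in Jak2-10 cells, against 9.46, 9.59 and 9.50 in GFP cells and 9.17, 9.40 and 9.37 in Luc cells. Among 6 genes of the pentose phosphate pathway, which branches off at glucose 6-phosphate, PGLS rose 1.30-fold with Jak2-9 (limma adjusted p = 0.0463). PGLS read 10.05, 9.73 and 9.61 in Jak2-9 cells and 9.53, 9.45 and 9.46 in Jak2-10 cells, against 9.46, 9.48 and 9.38 in GFP cells and 9.44, 9.27 and 9.45 in Luc cells. PGD of the same pathway gave 0.31 (limma adjusted p = 0.0538), and PGM1, which links glucose 6-phosphate to glycogen, 0.35 (limma adjusted p = 0.0538). Of 10 glycogen genes and 11 regulators of the HIF pathway 0 passed in any comparison, against the same shares of all genes. At those shares 0 calls in lists this short do not set the lists apart from all genes. The lowest p-values among the regulators were those of HIF1AN, which hydroxylates HIF1A, at 0.20 ± 0.10 for both hairpins, and of the coactivator CREBBP, at -0.33 ± 0.16 with Jak2-9 (SE). The calls of MPC1 and PGLS with Jak2-9 stand beside 1.6% of all genes that rose in that comparison.

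Among 29 other HIF targets, 0 rose and 1 fell for both hairpins and likewise with Jak2-9, against 0.436% and 1.39% of all genes for both hairpins and 1.6% and 1.47% with Jak2-9. WSB1, a ubiquitin ligase adaptor, fell by 0.57 ± 0.12 for both hairpins (SE, limma adjusted p = 0.0206) and by 0.64 with Jak2-9 (limma adjusted p = 0.0312), and gave -0.50 with Jak2-10 (limma adjusted p = 0.293). It read 8.96, 9.68 and 9.64 in Jak2-9 cells and 9.70, 9.65 and 9.35 in Jak2-10 cells, against 10.12, 9.79 and 9.95 in GFP cells and 10.21, 10.21 and 10.12 in Luc cells. Every knockdown array was dimmer at this WSB1 probe set than every control. Other WSB1 probe sets gave -1.36, -0.92, -0.58 and -0.12 for both hairpins. Of these, 213406_at, at -0.12, overlapped the controls and did not pass when probe sets were tested on their own (limma adjusted p = 0.574). The median of these 29 targets was 0.09 for both hairpins, with 22 of 29 above 0, against 0.04 and 63.5% for all genes.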

How the data were processed

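HEL cell RNA was profiled on 12 Affymetrix arrays with 1 dye. The authors deposited 1 table of intensity values on a linear scale (11.2 to 36233.5), made with RMA per the submitters' processing notes, version not stated. RMA corrects background, quantile normalizes arrays and summarises probes, which makes dim probe sets change less. Log2 values had been assumed in planning; log2 was therefore taken first, with no pseudocount.

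Of 22930 probe sets, 524 controls, 125 with several gene symbols and 2866 not named were left out. The brightest of the remaining 19415 represented each of 11940 genes. Array medians lay between 44.9 and 49.1; precision is limited by how few arrays there are.

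All 12 arrays were fitted with 4 group means (limma 3.58.1, R 4.3.3) and tested for 5 contrasts with Benjamini-Hochberg adjustment over all genes (threshold 0.05); the fit was tested on simulated data. Promoters were read in Python 3.11.15. All 34 genes matched RefSeq by Entrez identifier.

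The members and lists were chosen with earlier results of these data known. Every measured member is named; those called, and the 3 with the largest change each way in each contrast, have every array given. From each list of other pathway genes, called genes are named, or a gene with the lowest p in a comparison. PGD and the cell type markers named were chosen after their values were seen.

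Alternatives were quantile normalization, median centring, array weights, an intensity trend, dropping the dimmest 30% of genes, averaging a gene's probe sets, a replicate block, each control alone, every probe set on its own, and leaving out each array.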

Additional observations from a re-analysis of the deposited data

How the results depend on the processing

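With both hairpins against both controls, 1 of the 34 genes and 1.83% of all genes passed. In the alternatives 2 genes passed after median centring (2.39% of all genes), 2 after quantile normalization (1.93%), 4 with array weights (4.52%), 0 with a replicate block (1.86%), 0 with GFP alone as control (0.637%) and 0 with Luc alone (1.34%). With Jak2-9, 3 genes and 3.07% of all genes passed. In the alternatives 5 passed after median centring (8.13%), 5 with array weights (4.07%), 0 with GFP alone (0.829%) and 0 with Luc alone (1.64%), and 2 after quantile normalization (3.71%) and 2 with the replicate block (4.56%), both of which lost ALDOA. Leaving out each array in turn gave 0 to 2 genes for both hairpins and 0 to 7 for Jak2-9. There 0 passed without Jak2-9 replicate 1 (1.31% of all genes), Luc replicate 1 (1.67%) or Luc replicate 2 (1.31%), and 7 without Jak2-9 replicate 3 (11%). For Jak2-10 and for the differences between hairpins and between controls 0 genes passed in every setting that gave 1 value per gene. With every probe set on its own, 1 of 61 fell for Jak2-10, PKM at 213700_s_at.

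JAK2 passed with Jak2-10 under an intensity trend (-0.58), with array weights (-0.50), and without Jak2-9 replicate 1 (limma adjusted p = 0.00326) or replicate 3 (limma adjusted p = 0.0419). Leaving out each array gave -0.63 to -0.49, with a limma adjusted p of up to 0.57. Of the dimmer probe sets of PGK1 and PKM, 3 fell where the brightest lay above 0. PGK1 gave -0.43 at 221616_s_at and -0.53 at 221617_at for both hairpins, with -0.59 at 221617_at for Jak2-9. PKM at 213700_s_at gave -0.79 for both hairpins, -0.85 with Jak2-9 and -0.73 with Jak2-10. The cause was not tested.

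The replicate numbers pair nothing in the labels. Same-numbered arrays of different groups correlated between -0.12 and 0.18 in their deviations from the group means, 5 of 18 pairs over 0.1, so the block is not read as a paired design. With the block, ALDOC gave 0.48 for both hairpins at a limma adjusted p of 0.0529.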
